A study of Mus musculus with 2 samples.

Results

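Of the 33788 CTCF summits deposited for mouse embryonic stem cells (ESCs), 33226 lay on chromosomes 1 to 19, and 610 of these (1.84%, 95% Wilson interval 1.70 to 1.99) lay inside coding exons. A summit, the position where the tags of a peak pile up highest, was taken as one in a coding exon where it fell in a coding interval of a protein-coding gene in GENCODE M1 (mm9) and more than 1 kb from the start of every annotated gene. The 610 summits were spread over 587 genes, with 565 genes holding 1 summit, 21 genes holding 2 and Col1a1 alone holding 3. A further 80 summits in coding sequence were left out because a gene start lay within 1 kb, and 385 summits lay outside coding sequence but within 50 bp of it.

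The part of the study read here has 1 ChIP-seq library with a goat antibody against GFP and 1 with a goat IgG isotype control. Both came from R1/E ESCs that expressed CTCF with a GFP-containing LAP tag from a stably integrated BAC. Resistant clones had been sorted for GFP-positive cells, and the cells of both libraries were grown with LIF and serum, crosslinked with 1% formaldehyde and sonicated. The labels also call the IgG library input DNA, and the isotype control is the reading used below. The CTCF library held 8391191 tags and the IgG library 7988889 tags, each 35 bp long and with no position repeated. With 1 library per antibody there is no replicate, so every interval below is a 95% interval that covers counting error only and compares these libraries, not conditions. The GFP antibody reads the tagged protein only, and how its amount compared with the endogenous protein was not measured here.

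CTCF is a zinc finger protein that reads a long, GC-rich DNA motif and is known for halting cohesin and thereby anchoring chromatin loops. Most of its sites lie in introns or between genes. In a coding exon the same bases also spell codons, so that a motif there is read in some codon frame on the coding or the template strand.

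The motif matrix was built from the CTCF motifs that the study lists at its RAD21 peaks, and its consensus was tggccaccagggggcacta. A match was called at a score of 13.06 bits or more, which a random position reaches with p 1e-05. To show how the motif is written into codons, the tallest summit is given for 5 of the 6 combinations of the motif's strand and the codon position of its first base along the gene, together with the highest scoring match of all. Each sequence is the coding strand read 5′ to 3′ from mm9, the capitals mark the motif match, and up to 20 bases of the same coding interval are kept on either side. In Erh, Rp1, Dst and Podxl2 the motif reads in the direction of the gene, and in 1500009C09Rik and Kif27 it reads in the opposite direction, so that the capitals show its reverse complement.
Erh (chr12:81743785-81743832, minus strand): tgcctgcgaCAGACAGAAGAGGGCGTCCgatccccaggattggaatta
Rp1 (chr1:4336438-4336496, minus strand): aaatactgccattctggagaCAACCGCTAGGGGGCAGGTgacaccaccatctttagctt
Dst (chr1:34246959-34247017, plus strand): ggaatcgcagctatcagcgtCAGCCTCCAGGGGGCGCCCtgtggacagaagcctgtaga
1500009C09Rik (chr15:82090115-82090173, plus strand): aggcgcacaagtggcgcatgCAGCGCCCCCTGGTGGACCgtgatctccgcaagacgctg
Kif27 (chr13:58389375-58389433, minus strand): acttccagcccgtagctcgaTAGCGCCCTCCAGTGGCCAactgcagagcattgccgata
Podxl2 (chr6:88799388-88799446, minus strand): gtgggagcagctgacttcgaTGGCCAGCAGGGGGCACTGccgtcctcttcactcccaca

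The first capital letter stands at codon position 1 in Erh and 1500009C09Rik, at position 2 in Rp1 and Kif27, and at position 3 in Dst and Podxl2. The exon of Erh is coding in 1 of the 2 coding transcripts that span it, and that of Dst in 3 of 4. The match in Podxl2 had the highest score, 26.19 bits, but its summit was only 11 tags high. The match in Rp1 scored 14.42 bits, close to the threshold, under a summit of 31 tags.

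The tallest of the 610 summits lay in Dnahc8, which encodes a dynein heavy chain of cilia and flagella. It stood 39 tags high, in exon 85 of 93 (chr17:30956064-30956219), with 43 CTCF tags and 3 IgG tags within 150 bp. The next was in Anapc2, a subunit of the anaphase promoting complex, in exon 8 of 13 (chr2:25134692-25134833), 35 tags high with 39 CTCF and 2 IgG tags. Both carried their motif beyond the exon, in the neighbouring intron, at 13.95 bits in Dnahc8 and 22.56 bits in Anapc2. The third was in Rp1, a microtubule protein of photoreceptors, inside the long exon 4 of 5 (chr1:4334690-4340172), 31 tags high with 40 CTCF tags and no IgG tag.

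The other 7 of the 10 tallest summits stood between 26 and 28 tags. Those in 1500009C09Rik and Gm16253 were both 28 tags high and both in the last exon of 2, with 34 CTCF and 2 IgG tags in the former and 30 CTCF tags and no IgG tag in the latter. Kif27, a kinesin, had a summit of 27 tags in its last exon, number 17, with 33 CTCF and 2 IgG tags. Clip2, a microtubule-binding protein, had a summit of 27 tags in exon 16 of 17, with 31 CTCF and 3 IgG tags. All 10 of the tallest summits had a motif within 150 bp, 6 of them lay in inner exons and 4 in last exons. The remaining 3 lay in Gfap, the intermediate filament of astrocytes, in Dst, a linker of cytoskeletal filaments, and in Sfpi1, the blood transcription factor PU.1, each 26 tags high, with 30, 29 and 28 CTCF tags and 1, 1 and 2 IgG tags.

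Over all 610 summits, the height ran from 6 to 39 tags with a median of 12 (order-statistic interval 11 to 12), and 9 summits stood at the lowest height. The number of CTCF tags within 150 bp ran from 6 to 43 with a median of 13. The number of IgG tags ran from 0 to 5, and 273 summits had none, 203 had 1, 98 had 2, 21 had 3, 14 had 4 and 1 had 5. At each of the 610 summits the CTCF library had more tags than the IgG library, which the peak call requires. The summit with 5 IgG tags lay in Fam149b, with 22 CTCF tags, and next by IgG tags came Pik3ca, a catalytic subunit of phosphoinositide kinase, with 21 CTCF and 4 IgG tags, and Kif13a, a kinesin, with 20 CTCF and 4 IgG tags.

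**Figure D1:**
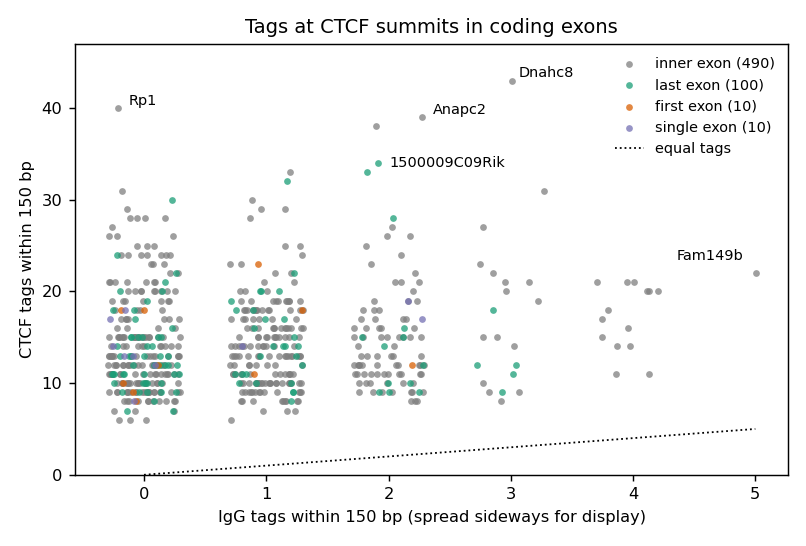
Each point is 1 of the 610 summits, with IgG tags within 150 bp on the horizontal axis (points are spread sideways for display) and CTCF tags within 150 bp on the vertical axis, both in tags, coloured by exon place; the dotted line marks equal tags. All points lie above the line, the highest IgG count is 5, and Dnahc8, Rp1 and Anapc2 lead with 43, 40 and 39 CTCF tags.

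Coding exons were compared with introns of protein-coding genes, both more than 1 kb from every gene start. The 29.5 Mb of coding sequence held 20.7 summits per Mb and the 850 Mb of introns 16.2, a ratio of 1.27 (exact interval 1.17 to 1.38). The IgG library ran the other way, with 3.34 tags per kb in coding sequence and 3.49 in introns, a ratio of 0.958 (0.952 to 0.965). Per IgG tag, coding sequence thus held 1.33 times (1.22 to 1.44) the summits of introns. Against intergenic sequence, with 11.0 summits per Mb, the ratio was 1.89 (1.74 to 2.05), and against the untranslated and noncoding exons, with 26.0 per Mb, it was 0.796 (0.719 to 0.881). Coding exons were therefore denser in summits than introns and intergenic sequence and less dense than other exons.

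Summits in coding exons were lower than those in introns. Their median of 12 tags compared with 13 (13 to 13) over 13796 intron summits, of which the tallest reached 86 tags. A height of 20 tags or more was reached by 46 coding-exon summits, 7.54% (5.70 to 9.91), and by 15.2% (14.6 to 15.8) of intron summits, a difference of -7.64 percentage points (Newcombe interval -9.58 to -5.20). The median peak score, a transformed p-value of the peak call that grows with significance, was 107 (102 to 114) in coding exons and 120 (118 to 122) in introns. Against the summits near gene starts, of which 15.3% reached 20 tags, the difference was -7.75 points (-10.2 to -4.98), but the median height there was also 12 tags, the median score was 108 (104 to 112), and the share with a score of at least 100 differed by 0.177 points (-4.29 to 4.60).

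The IgG library was also lower at these summits. No IgG tag lay within 150 bp at 44.8% (40.9 to 48.7) of coding-exon summits and at 34.7% (33.9 to 35.5) of intron summits, a difference of 10 points (6.07 to 14.1). The gap was smaller to summits near gene starts, with 40.3% and a difference of 4.41 points (0.00827 to 8.86). For other exons the share was 37.3%, a difference of 7.42 points (2.48 to 12.3). The mean was 0.857 IgG tags per coding-exon summit and 1.11 per intron summit. Summed over the 610 summits, 8906 CTCF tags stood against 523 IgG tags, which at equal depth is a ratio of 16.2 (14.8 to 17.7), while intron summits gave 13.9 (13.7 to 14.1). The IgG library served as the control of the peak call, so both libraries took part in choosing the summits and these ratios are descriptions. In a recount with a Poisson probability over 300 bp, 506 of the 610 summits passed p 1e-05, or 83.0% (79.8 to 85.7), beside 85.6% of all summits on chromosomes 1 to 19. The difference to introns was -2.50 points (-5.74 to 0.338), an interval that includes 0.

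Other coding exons of the same genes were counted as a background. The 8413 other coding exons of the same genes that no peak touched, 1337 kb in all, held 4.28 CTCF and 3.38 IgG tags per kb, a depth-scaled ratio of 1.21 (1.16 to 1.25). Within 150 bp of the coding-exon summits the CTCF library had 48.5 tags per kb and the IgG library 2.85. The former exons were kept for having no peak and the latter windows for being summits, so the gap between them follows from the choice and is a description. In bins of 50 bp, CTCF tags per summit fell from 3.43 just before the summit to 0.890 in the bin from 150 to 100 bp before it, and the IgG library ran between 0.110 and 0.195 within 350 bp, lowest just before the summit. At intron summits the IgG library was highest near the centre, with 0.204 and 0.208 tags in the bins from 50 to 100 bp on either side, against 0.141 and 0.143 in those from 300 to 350 bp. The summit is placed where tags are densest, so the height of the profile at its centre follows from that choice.

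**Figure D2:**
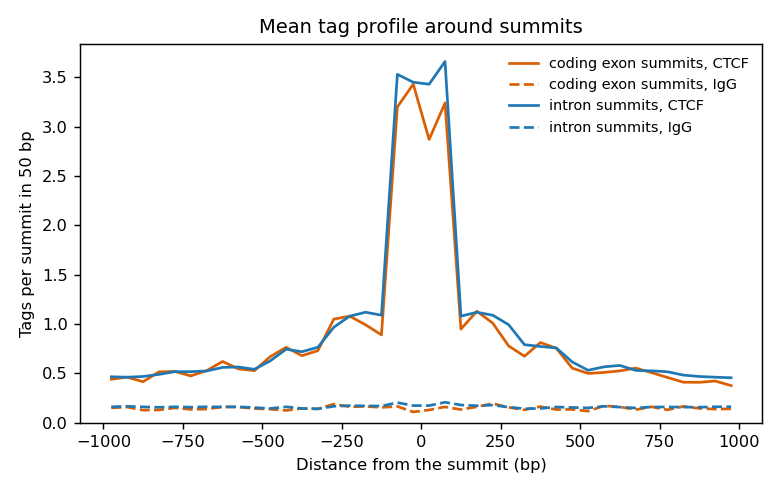
Mean number of tags per summit in 50 bp bins against the distance from the summit in bp, for 610 coding-exon summits and 13796 intron summits, with CTCF as solid and IgG as dashed lines. The CTCF lines peak within 100 bp of the summit, at 3.43 tags per bin in coding exons, and the IgG lines stay near the bottom, at up to 0.195 within 350 bp in coding exons and up to 0.208 in introns.

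The sequence around the summits was richer in GC than that around intron summits and than coding sequence at large. Within 150 bp the median GC content was 53.3% (52.8 to 54.2) at coding-exon summits, 50.2% (49.8 to 50.5) at positions sampled evenly from coding sequence and 45.8% at intron summits. The median number of CpG dinucleotides in the same window was 7 (6 to 7) at coding-exon summits, 5 (5 to 6) at the sampled coding positions and 3 at intron summits. Near gene starts the median GC content was 49.7% (49.2 to 50.2), but the median number of CpG was also 7 (7 to 7). The peaks were 806 bp wide at the median, against 846 bp in introns. The next summit lay 7982 bp (7022 to 9024) away, against 11447 bp (11127 to 11817) for introns. For summits in other exons it lay 8819 bp (8156 to 9689) away, an interval that overlaps that of coding exons, and near gene starts 9439 bp (8776 to 10112).

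The place of the exon in its gene was read from the transcript with the longest coding sequence that held the summit. Inner exons held 490 summits, 80.3% (77.0 to 83.3), last exons 100 or 16.4% (13.7 to 19.5), and first exons and the exons of single-exon genes 10 each, or 1.64% (0.893 to 2.99). The coding bases more than 1 kb from every gene start were divided as 78.3% inner, 18.7% last, 1.78% first and 1.19% single. IgG tags in the same sequence fell 80.9% in inner, 16.9% in last, 1.31% in first and 0.855% in single exons. Coding sequence within 1 kb of a gene start is left out of all these shares, so the small shares of first and single exons depend on the rule. The summits differed from the IgG tags by -0.620 points in inner exons (-3.97 to 2.35), -0.493 in last exons (-3.23 to 2.66) and 0.328 in first exons (-0.422 to 1.68), each interval including 0. In single exons the difference was 0.785 points (0.0358 to 2.14), an excess that rests on 10 summits. Of these, 7 lay in genes of 1 cluster, Pcdhb, and 2 in the same exon of Tril, while the interval treats all as independent. It was not adjusted for the number of classes compared.

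The intervals of the median height overlapped across these places. The median height was 11 tags in first exons (8 to 17), 12 in inner exons (11 to 12), 11.5 in last exons (11 to 12) and 13.5 in single exons (12 to 17). The CTCF to IgG ratio was 15.4 (14 to 17) in inner and 19.6 (15.4 to 25.3) in last exons, and 26.5 and 27.6 in first and single exons, where 5 IgG tags each leave wide intervals (11.1 to 82.8 and 11.6 to 86.3). Among first exons the tallest summits were those of Ubxn11, 18 tags high with 18 CTCF tags and 1 IgG tag, and of Pcdha11 and Tmcc2, both 17 tags high, with 23 CTCF tags and 1 IgG tag and with 18 CTCF tags and no IgG tag. The Ubxn11 and Tmcc2 summits lay 2 and 4 bp from the edge of their exon.

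Of the 10 summits in single exons, 7 lay in genes of the Pcdhb cluster, 2 in Tril, an accessory protein of Toll-like receptor signalling, and 1 in Rimbp3. The tallest were those of Pcdhb14 and Rimbp3, 17 tags high with 18 and 17 CTCF tags and no IgG tag, and of Pcdhb3, 15 tags high with 19 CTCF and 2 IgG tags. Only 3 of these 10 summits had a motif, 30.0% (10.8 to 60.3), against 9 of 10 in first exons, 321 of 490 in inner exons (65.5%, 61.2 to 69.6) and 71 of 100 in last exons (71.0%, 61.5 to 79.0).

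**Figure D3:**
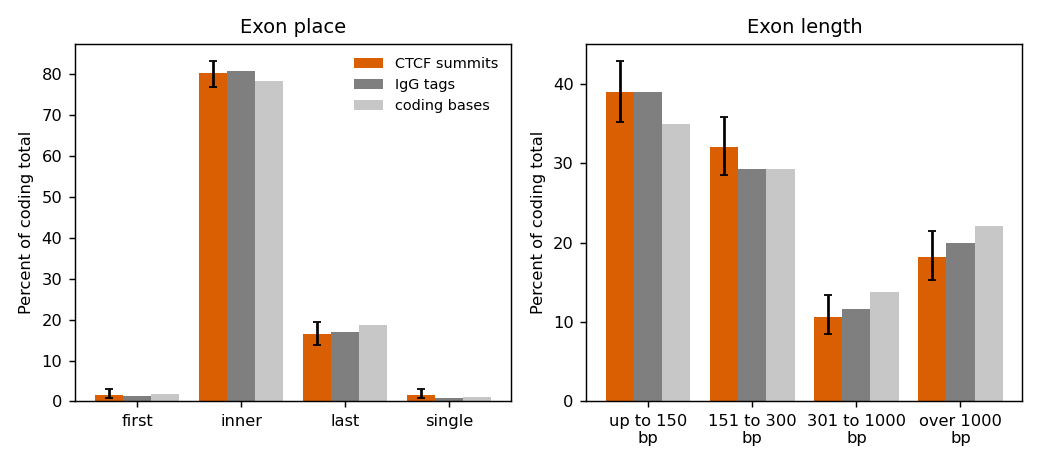
Percent of coding-exon summits (orange, bars with 95% Wilson intervals), of IgG tags in coding sequence (dark grey) and of coding bases (light grey) by exon place (left) and exon length (right). Inner exons hold 80.3% of the summits and 78.3% of the bases, and exons of up to 150 bp hold 39.0% of the summits and 34.9% of the bases.

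Within the exon, summits lay near an edge, as most coding bases do. The exon was 173 bp long at the median (163 to 187), against 192 bp over coding positions, and the nearest exon edge was 42 bp away (39 to 46), against 49 bp. At least 100 bp from an edge lay 21.1% of summits, 24.7% of IgG tags and 28.5% of coding bases, and the difference to the IgG tags was -3.55 points (-6.62 to -0.123). By exon length, 39.0% of summits and 39.0% of IgG tags fell in exons of up to 150 bp, and none of the 4 length classes differed from the IgG tags beyond its interval. With the coding sequence cut into 4 equal stretches, the stretch nearest its start held 17.9% of summits and 21.3% of IgG tags, a difference of -3.41 points (-6.25 to -0.158), and the following stretches held 25.1%, 28.9% and 28.2% of summits. Exons that some coding transcripts of the gene skip held 54 summits, 8.85% (6.85 to 11.4), beside 8.46% of the IgG tags. None of the intervals in this paragraph was adjusted for the number of classes compared.

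A CTCF motif lay within 150 bp at 404 of the 610 summits, 66.2% (62.4 to 69.9), beside 72.6% of all summits on chromosomes 1 to 19 and 6.89% at positions 2000 bp away from the coding-exon summits. The share was lower than the 72.9% of intron summits, with a difference of -6.69 points (-10.6 to -2.97), and higher than the 59.5% near gene starts, with a difference of 6.70 points (2.36 to 10.9). At the looser threshold of p 1e-04, 85.7% of coding-exon summits and 83.9% of intron summits had a match, and the difference of 1.81 points (-1.24 to 4.44) included 0. The best motifs within 150 bp of coding-exon summits had a median score of 18.0 bits (17.6 to 18.5), against 19.2 bits at intron summits. These scores were not matched for summit height, and not all of these motifs lay inside the exon.

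The share with a motif grew with height in coding exons and in introns alike. It was 48.8% in coding exons and 53.0% in introns for summits of 6 to 9 tags, 66.5% and 68.6% for 10 to 12 tags, 73.0% and 79.7% for 13 to 16 tags, and 83.2% and 87.2% above. At equal height the difference included 0 in 3 of the 4 classes, and at 13 to 16 tags it was -6.64 points (-14.3 to -0.0723). Of the 16 summits with 25 tags or more, 14 had a motif at p 1e-05. The other 2, named here after their values were seen, lay in Arhgef12 and Vps13d, a lipid transfer protein, and had matches only at the looser threshold, of 9.3 and 10.09 bits.

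Many of the motifs did not lie in the codons. Of the 404, 249 (61.6%, 56.8 to 66.2) lay wholly in the coding interval, 115 (28.5%, 24.3 to 33.1) beyond the exon, 38 (9.41%, 6.93 to 12.6) across an exon edge and 2 in an untranslated stretch of the same exon. Summits lay 55 bp (50 to 59) from the motif centre at the median, and 52 bp in introns. The signed distance was -15 bp (-26 to -6) at the median, where negative values lie on the side of the first letter of the consensus. A summit inside an exon therefore does not always place the motif there, and the summits of Dnahc8, Anapc2 and Clip2 are examples.

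The motif lay about as often on either strand of the gene. It lay on the coding strand at 192 of 404 summits, 47.5% (42.7 to 52.4), and at 121 of the 249 motifs inside coding sequence, 48.6% (42.5 to 54.8). Over all 3996 motif matches in coding exons with a defined frame, 2003 (50.1%, 48.6 to 51.7) lay on the coding strand.

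The reading frame was uneven. On the coding strand, the first base of the motif stood at codon position 1 in 48 of the 249 motifs at summits, at position 2 in 12 and at position 3 in 61, and on the template strand the base that comes first along the gene stood at these positions in 55, 37 and 36. The matches over all coding exons were uneven in the same order on the coding strand, with 17.6%, 6.73% and 25.8% of the 3996 matches, beside 19.3%, 4.82% and 24.5% at summits. On the template strand they gave 19.7%, 16.9% and 13.2%, beside 22.1%, 14.9% and 14.5%. In each of the 6 combinations the interval at summits included the share over all matches. The share of matches with a summit ran from 6.79% (5.13 to 8.94) for position 2 on the template strand to 11.9% (9.85 to 14.4) for position 1 on that strand, without adjustment for the 6 combinations.

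**Figure D4:**
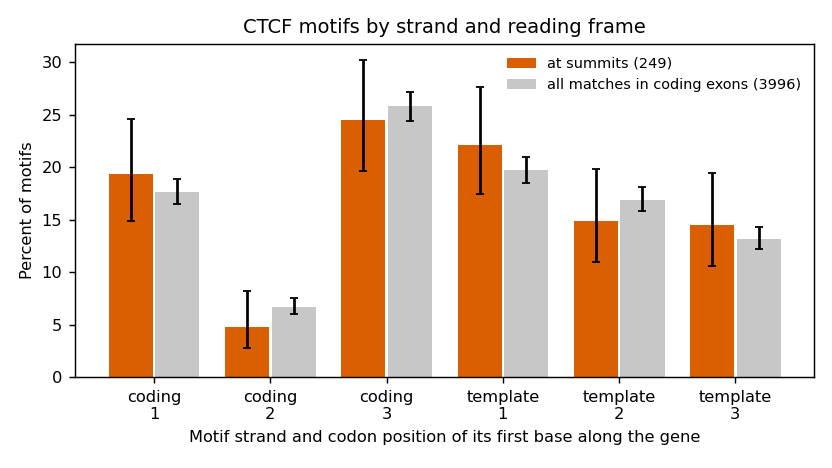
Percent of motifs by strand (coding or template) and by the codon position, 1 to 3, of the motif's first base along the gene, for the 249 motifs in coding sequence at summits (orange) and the 3996 matches in coding exons (grey), with 95% Wilson intervals. Position 2 on the coding strand is lowest in both, at 4.82% and 6.73%.

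The question was also turned around, from the motif to the summit. Coding sequence held 4000 motif matches, 136 per Mb against 122 per Mb in introns, and 360 of them (9.0%, 8.15 to 9.93) had a summit within 150 bp, against 10611 of 104011 in introns (10.2%, 10 to 10.4), a difference of -1.20 points (-2.07 to -0.257). Within the classes of score above 15 bits the order turned. At 13 to 15 bits, which held 2318 of the coding matches, the shares were 3.11% and 3.06%, a difference of 0.044 points (-0.610 to 0.847) that includes 0, and at 15 to 17 bits they were 8.78% and 7.08%, a difference of 1.70 points (0.0506 to 3.67). At 17 to 19 bits a summit lay at 18.3% of coding and 9.50% of intron matches, a difference of 8.78 points (5.40 to 12.7), and at 19 bits or more at 45.4% and 39.0%, a difference of 6.41 points (0.533 to 12.4).

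This order depended on intron matches whose 19 letters recur. Of the intron matches, 40735 had letters found 10 times or more among all matches, and 5.16% of these had a summit, while 46 coding matches were of that kind. Among matches whose letters occurred once, a summit lay at 9.02% (8.11 to 10) of 3492 coding matches and 13.1% (12.8 to 13.4) of 48850 intron matches, a difference of -4.11 points (-5.06 to -3.07). Here the share was lower in coding exons at 17 to 19 bits, with 17.5% against 29.4% and a difference of -11.9 points (-15.6 to -7.64), and at 19 bits or more, with 46.7% against 58.5% and a difference of -11.8 points (-18.6 to -4.93). Below 17 bits both differences included 0. The count of recurring letters was added after the classes of score had been seen, and whether tags could be aligned to recurring copies was not tested.

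**Figure D5:**
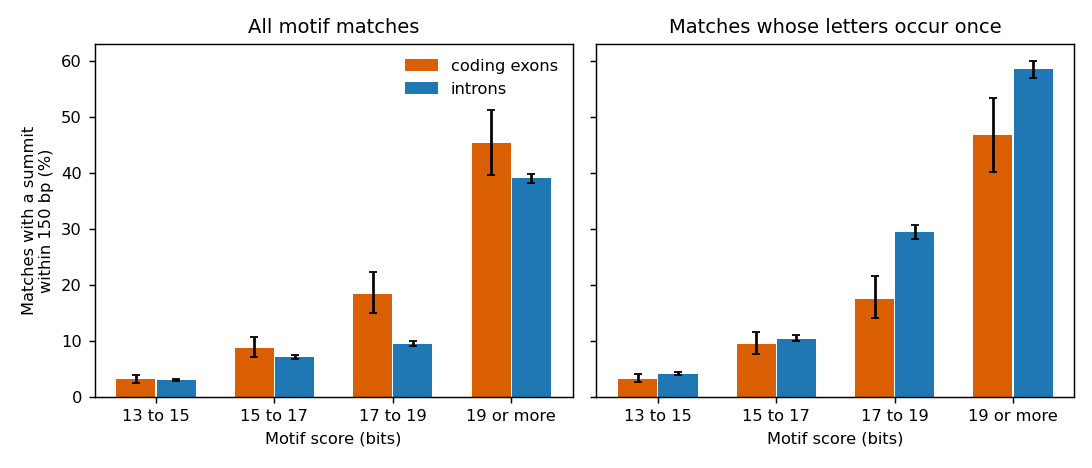
Percent of motif matches with a CTCF summit within 150 bp by motif score in bits, in coding exons (orange) and introns (blue), with 95% Wilson intervals, for all matches (left) and for matches whose 19 letters occur once (right). At 17 to 19 bits coding exons stand above introns on the left (18.3% and 9.50%) and below them on the right (17.5% and 29.4%).

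CpG was more frequent in coding matches and more so where a summit lay. At least 1 CpG stood in 40.7% of coding and 20.2% of intron matches, and in 61.9% (56.8 to 66.8) of the coding and 34.4% (33.5 to 35.3) of the intron matches with a summit. Coding matches with a CpG had a summit in 13.7% of cases and those without in 5.78%, against 17.4% and 8.38% in introns. The difference between coding exons and introns was -3.69 points (-5.36 to -1.86) with a CpG and -2.61 points (-3.50 to -1.58) without. These shares are over all matches and were not split by score or by recurring letters, on which the difference depended above. DNA methylation was not measured here.

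The gene with most summits was Col1a1, a chain of type I collagen. It had summits in exons 6, 20 and 27 of 51, with heights of 16, 9 and 8 tags, CTCF tags of 20, 10 and 8 and IgG tags of 3, 1 and 1. Each had a motif, and in each it lay beyond the exon, which is 69 bp long for exon 6 and 54 bp for the others. Of the 21 genes with 2 summits, those with the tallest were Dnahc8 (39 and 9 tags), 4930555I21Rik (25 and 8), Sorbs2, an adaptor protein of the actin cytoskeleton (22 and 10), Nbeal2, a protein of platelet granules (21 and 14), Dmxl2 (19 and 9), Kif13a (19 and 9) and Nbr1, an autophagy receptor (18 and 7). In all 7 the summits of the pair differed in height, and the IgG counts at these 14 summits were between 0 and 4. These 7 were picked by their tallest summit, which favours unequal pairs. Among the other genes with 2 summits, Tdrd7 and Myo9b, named here after their values were seen, had both summits at 10 tags. Genes with a coding-exon summit had a median of 1947 bp of coding sequence (1794 to 2105), against 1123 bp (1107 to 1140) for those without.

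Lists of genes were set beside the 587 of 18856 protein-coding genes, 3.11%, that held a summit in a coding exon, where a gene was counted if some of its coding sequence lay more than 1 kb from every gene start. The lists were described by their counts and not tested. The clustered protocadherins, cell surface proteins that give neurons their identity, had a summit in 10 of 24 genes (41.7%, 24.5 to 61.2). These were 11 summits, 149 per Mb of coding sequence against 20.6 over all genes. Their heights ran from 7 to 17 tags with a median of 13, with 155 CTCF and 10 IgG tags in sum. The tallest were those of Pcdha11 and Pcdhb14 at 17 tags and of Pcdhb3 at 15 tags. Of the 11 summits 4 had a motif, and of the 8 in Pcdhb genes 1 had. This count depends in part on the threshold of 13.06 bits, since Pcdhb14 and Pcdhb10 each had a match of 12.53 bits, Pcdhb12 of 12.4 bits and Pcdhb13 of 12 bits. The best match at the Pcdhb18 summit was far below it, at 8.83 bits. The annotation gives the name Pcdha11 to transcripts with different first exons, and 2 of the summits lay in such exons. The exons of this family resemble each other, and how tags that fit several copies were treated is not given in the sources used here.

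Genes for molecular motors had a summit in 13 of 98 cases (13.3%, 7.92 to 21.4). Besides Dnahc8 and Kif27, the tallest was in Myo3b, an unconventional myosin, 23 tags high with 26 CTCF tags and no IgG tag. The list held 16 summits, or 30.6 per Mb of coding sequence, beside 20.6 over all genes. The gap to all genes was thus smaller per Mb than per gene. Of the 52 genes for collagens and laminins 4 held 6 summits, 23.5 per Mb, led by Lama4 and Col16a1 at 17 tags, with 20 CTCF and 2 IgG tags and with 19 CTCF tags and no IgG tag. Solute carriers, which move small molecules across membranes, had a summit in 13 of 357 genes (3.64%, 2.14 to 6.13), led by Slc44a5 at 17 tags and Slc27a1 and Slc25a13 at 16 tags, none of which had an IgG tag.

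The remaining families are given beside the same 3.11%. No summit lay in the coding exons of 468 olfactory and vomeronasal receptor genes, an interval of up to 0.814%, or of 38 Hox genes, an interval of up to 9.18% that includes the share over all genes. Of 357 zinc finger genes named Zfp 4 had a summit (1.12%, 0.437 to 2.85), namely Zfp523, Zfp219, Zfp213 and Zfp362, with heights of 17, 15, 14 and 12 tags. Among 46 keratin genes (2.17%, 0.385 to 11.3) Krt20 had a summit of 11 tags, and among 6 histone genes (16.7%, 3.01 to 56.4) Hist2h2bb had a summit of 18 tags with 19 CTCF tags and 1 IgG tag.

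Of 19 factors known for pluripotency, 3 had a coding-exon summit (15.8%, 5.52 to 37.6), beside 3.11% of all protein-coding genes. Pou5f1, which encodes OCT4, had a summit 18 tags high in exon 3 of 5 (chr17:35646353-35646483), with 21 CTCF tags, no IgG tag and a motif of 15.23 bits on the template strand in the codons. Klf4 had a summit of 9 tags with 12 CTCF tags and no IgG tag, in exon 3 of 5, with a motif of 16.42 bits in the coding sequence. Klf5, a related factor, had a summit of 9 tags with 9 CTCF tags and 1 IgG tag, and no match above 10.41 bits. Of 17 genes for CTCF, cohesin and its regulators, Pds5a, a cohesin-associated protein, had a summit of 11 tags with 11 CTCF tags and no IgG tag in exon 2 of 32, with no match above 10.79 bits.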

How the data were processed

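CTCF-GFP and IgG ChIP-seq libraries were analysed (1 each). For each library the authors deposited the aligned tags with their raw count, 1 on every line. For the CTCF library the authors deposited MACS 1.4 peaks, whose score is the p-value against IgG on the caller's -10 log10 scale (lowest 50), and summits, whose signal is the pileup in tags. The aligner is not given in the sources used here. Depth was 8391191 and 7988889 tags, and with it most summits rest on under 20 tags.

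Each tag was shifted 92 bp toward its fragment centre (fragments of 185 bp, estimated at the 1000 peaks with the highest score) and counted within 150 bp. The recount used the largest of the IgG rates over an effective genome size of 1870000000 bp and over 1000, 5000 and 10000 bp. The matrix came from 192 sequences of 19 bp, with a pseudocount of 1 and base frequencies of 0.29 (A, T) and 0.21 (C, G), with those listed on the minus strand reverse complemented. Genome and annotation were NCBI m37 (mm9) and GENCODE M1. A summit with several overlapping genes was given to the transcript with the longest coding sequence. Shares carry Wilson, differences Newcombe and ratios exact conditional binomial intervals at 95%. The software was pandas 2.3.3, scipy 1.17.1, numba 0.67.0, numpy 2.4.6 and matplotlib 3.10.9 under Python 3.11.15. Scripts were tested on simulated data.

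The members, gene lists and tests were chosen with earlier results of these data known. Genes named are the 10 tallest summits, the 3 tallest per exon place and per gene list, genes with most summits (at most 8, ties by the tallest summit), the 3 with most IgG tags (ties by height) and the tallest per motif strand and codon position, with exceptions said in place. The sequence of 1 combination is not reported here. Alternatives varied the score, gene starts, coding annotation, windows, scaling, motif threshold and exon ranking.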

Additional observations from a re-analysis of the deposited data

How the results depend on the processing

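No paired analysis was possible because each antibody has a single library in the part read here, without any test across samples. Of 56 recomputed values, 35 stayed within the 95% interval of the value reported (for the count, within 1.5 times it). When the peak score had to reach 100, 335 summits in coding exons remained, 1.69% of summits, 1.16 times as dense as in introns, with a median height of 15 tags, a CTCF to IgG ratio of 19.7, a recount share of 97.6%, a motif share of 75.2% and a summit at 5.35% of coding matches. With the distance taken from every transcript start, 502 summits in coding exons remained, 1.51% of summits. Counting every peak with any base in coding sequence, wherever its summit lay, gave 3761 peaks, 11.3%. The CTCF to IgG ratio was 11.6 within 250 bp, 13.2 without moving tags and 18.1 when scaled by tags outside peaks. A recount at p 1e-10 was passed by 38.9%. The motif share was 85.7% at p 1e-04 and 27.5% within 50 bp, where 53.0% (45.4 to 60.4) of motifs lay on the coding strand, so that the strand with more motifs changed, from 47.5%. The difference in motif share to introns turned from -6.69 to 1.81 points (-1.24 to 4.44) at p 1e-04. A summit lay within 50 bp of 3.88% of coding matches, and within 150 bp of 28.4% of those at p 1e-06. Ranked among coding exons alone, 76.7% of summits lay in inner exons. Without the clustered protocadherins, an alternative added after seeing the data, the motif share was 66.8%. The stretch of raised IgG signal around Ctcf held 0 of the 610 summits. The values recomputed without it are all among the 35 above and could hardly move. The differences to introns in motif share, height and IgG tags kept their direction at p 1e-05, with intervals that left out 0, under the score, transcript start and complete coding annotation alternatives. Depth limits the counts: the median summit had 1 IgG tag, so single summits cannot be ranked by their ratio.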
